A study of Homo sapiens with 3 samples.

Results

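Spindlin1 peaks that lay far from every C11orf84 peak numbered 12713 of the 152617 Spindlin1 peaks on chromosomes 1 to 22, which is 8.33% (95% interval 8.19 to 8.47). A Spindlin1 peak was counted as far when no C11orf84 interval came within 5000 bases of either of its edges, and the remaining 139904 are called the other Spindlin1 peaks. The far peaks were selected on the called positions of both lists, so their number and their distance from C11orf84 are descriptions. ChIP-seq, in which fragments bound by a protein are recovered with an antibody and sequenced, was done in untreated U2OS cells, a human osteosarcoma line, fixed for 10 min in 1% formaldehyde. Spindlin1 and C11orf84 were each precipitated once, giving 1 library per antibody, and an Input library was made without antibody, from which no file was used here. No difference below could be checked against replicates, so none carries a p-value. Bracketed ranges after a percentage are exact Clopper-Pearson 95% intervals, which cover counting error and treat neighbouring peaks as independent, which they are not.

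Spindlin1 is a chromatin reader that binds histone H3 tails methylated on lysine and arginine, and it is known as a coactivator at active genes and ribosomal DNA. C11orf84, also called SPINDOC, binds Spindlin1 directly and is known to modulate its activity. A far peak is a place where the reader was called and its partner was not called nearby. A missing C11orf84 call is a result below a threshold at the depth of that library, and the protein may still be present. Peaks are given by hg19 position, without genes or sequences, because the gene and promoter tables at hand are of another genome build and were not used.

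Far peaks were shallower and narrower than the other Spindlin1 peaks. Their summit depth, the number of fragments stacked at the peak's highest point, had a median of 10 fragments (quartiles 9 and 12), against 12 (10 and 14) for the other Spindlin1 peaks. Their median width was 184 bp (quartiles 172 and 220), against 237 bp (187 and 357). The authors' fold enrichment over background had a median of 5.21 in far peaks (range 2.71 to 10.97) and 5.76 in the other peaks (range 2.0 to 22.1). Far peaks covered 2.63 Mb and the other peaks 43.8 Mb. The authors' −log10 q was 10 or higher in 299 far peaks, 2.35% of them (2.1 to 2.63), where 11.8% of all Spindlin1 peaks and 12.7% of the other peaks reached it.

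The distance from a far peak to the nearest C11orf84 peak had a median of 16573 bases, with quartiles of 8721 and 38022 bases. Between 5001 and 10000 bases lay 3899 far peaks (30.7%), and 981 (7.72%) were over 100000 bases away. Depth and width changed little with distance once the limit was passed. The mean depth was 10.8 fragments at 5001 to 10000 bases, 10.5 at 20001 to 50000 bases and 10.1 beyond 100000 bases, and the median widths there were 186, 184 and 182 bp. A larger step lay inside the limit, since Spindlin1 peaks overlapping a C11orf84 peak had a mean of 12.9 fragments and a median width of 264 bp, whereas those 1 to 1000 bases away had 11.1 fragments and 197 bp. Around the limit itself the peaks were alike, with a mean of 10.9 fragments and a median width of 187 bp in the 568 peaks at 5001 to 5499 bases and 10.9 fragments and 190 bp in the 660 at 4501 to 5000 bases. The far peak closest to the limit, on chromosome 11 (73513779 to 73513950), was 5001 bases from C11orf84 with 8 fragments. The closest of the other peaks, on chromosome 3 (108876731 to 108876913), was 5000 bases away with 9 fragments.

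How evenly far peaks were spread over the chromosomes depended on the length they were set against. By the rule they can lie only in length over 5000 bases from C11orf84, and that length is scarce where peaks are dense, so a flat density over all length is in part built in. Over 2592 Mb of chromosomes 1 to 22, counted from the first to the last peak without peak-free stretches of 1 Mb or more, there were 4.90 far peaks and 54.0 other peaks per Mb. The far density ran from 2.41 per Mb on chromosome 13 and 3.52 on chromosome 4 to 6.64 on chromosome 19 and 6.73 on chromosome 20, a span of 2.80 times. The density of the other peaks ran from 17.6 per Mb on chromosome 4 to 240.0 on chromosome 22, a span of 13.7 times. On chromosome 22, where the other peaks were densest, far peaks stood at 5.53 per Mb, close to the 5.50 of chromosome 2 and the 5.16 of chromosome 1. Per Mb of the length open to them the order was another. It ran from 2.73 on chromosome 13 and 4.04 on chromosome 4 to 12.3 on chromosome 17, 15.0 on chromosome 22 and 15.3 on chromosome 19, a span of 5.596 times. The other peaks, set against the rest of the length, spanned 2.79 times. These spans are not measured alike, because the rest of the length is itself drawn around C11orf84 peaks. Counts of C11orf84 and Spindlin1 peaks per 1 Mb window followed each other closely (Pearson r 0.989). Which of the far and other peaks were more even is therefore not settled by the spans.

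**Figure D1:**
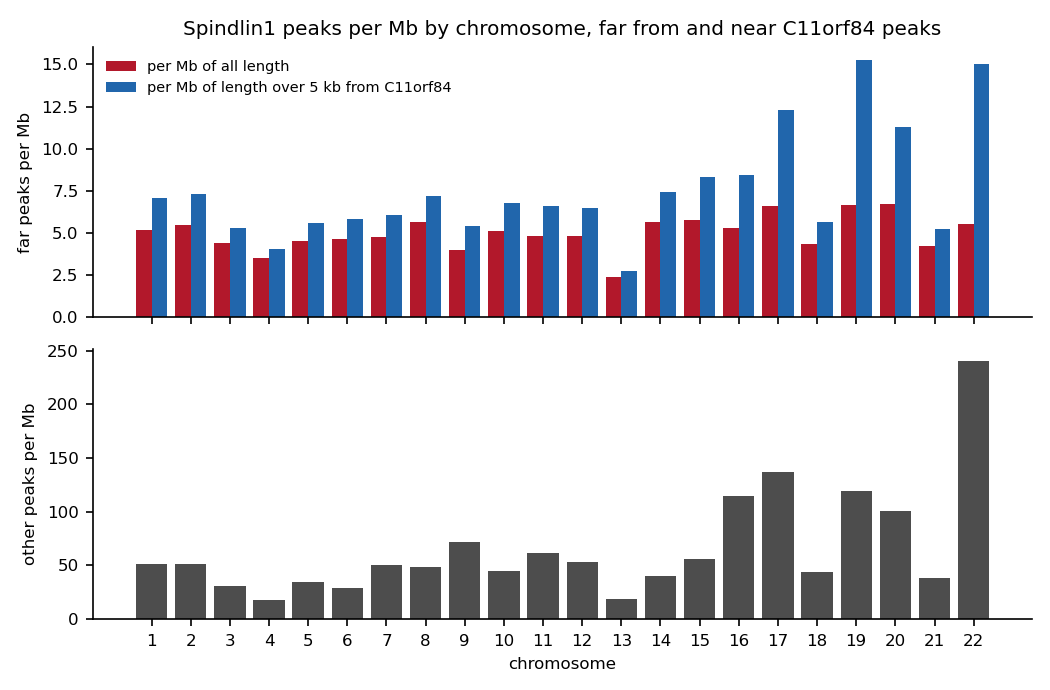
Spindlin1 peaks per Mb (y axes, linear, from 0) on chromosomes 1 to 22 (x axis), with far peaks in the upper panel (red per Mb of all length, blue per Mb of length over 5 kb from any C11orf84 peak) and other Spindlin1 peaks per Mb of all length in the lower one. Far peaks stay between 2.41 and 6.73 per Mb of all length but run from 2.73 to 15.3 per Mb of the length open to them, and the other peaks reach 240.0 on chromosome 22.

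As a share of a chromosome's Spindlin1 peaks, far peaks were rarest where peaks were dense. They made up 2.25% (1.95 to 2.59) of the peaks on chromosome 22, 4.41% (4.0 to 4.84) on chromosome 16 and 4.58% (4.2 to 4.99) on chromosome 17. They made up 16.7% (15.5 to 17.9) on chromosome 4, 13.8% (12.8 to 14.7) on chromosome 6 and 12.5% (11.7 to 13.3) on chromosome 3. The length lying over 5000 bases from any C11orf84 peak went largely the same way, from 36.7% of chromosome 22 to 87.1% of chromosome 4. Chromosome 13 departed from this, with the highest value, 88.2%, but a far share of 11.2% (9.79 to 12.8), below chromosomes 3, 4 and 6. Over all 22 chromosomes the length over 5000 bases from C11orf84 was 75.0%. Far peaks had a density of 6.54 per Mb in it, and the other peaks had 216 per Mb in the rest.

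Far peaks were found in most windows of 1 Mb. Of the 2701 windows that held a peak of either protein, 2457 held a far peak, which is 92.5% of the 2655 windows with a Spindlin1 peak. The median window had 4 far peaks (quartiles 2 and 7) and the fullest had 25. The other Spindlin1 peaks had a median of 12 per window (quartiles 4 and 49) and a maximum of 831. The 136 windows with most Spindlin1 peaks, 5% of all and each with at least 252, held 3.74% of the far peaks, against 35.9% of all Spindlin1 peaks and 38.9% of the other peaks. These windows had only 1.12% of the length over 5000 bases from C11orf84, and in that length far peaks stood at 21.9 per Mb, against 6.54 over all chromosomes. In 106 windows every Spindlin1 peak was far, but these held only 215 far peaks.

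Far peaks became denser with the density of all Spindlin1 peaks, which include them, when only the length open to them was counted. Per Mb of length over 5000 bases from C11orf84 they stood at 2.09 in windows of fewer than 10 Spindlin1 peaks, 9.03 in those of 20 to 49, 14.0 in those of 50 to 99 and 21.1 in those of 200 or more. Per Mb of all length the highest value lay at middling densities. On that measure windows of fewer than 10 Spindlin1 peaks had 1.98 far peaks per Mb, those of 20 to 49 had 6.90, those of 50 to 99 had 8.18 and those of 200 or more had 3.94. As a share of the Spindlin1 peaks, far peaks went from 39.0% (37.5 to 40.5) in windows of fewer than 10 to 22.1% (21.5 to 22.8) in those of 20 to 49 and 1.09% (1.01 to 1.17) in those of 200 or more. The length over 5000 bases from C11orf84 fell alongside, from 94.6% through 76.5% to 18.7%, and stayed above the share of far peaks in each of the 6 density groups. Width and depth of far peaks hardly moved with density, with median widths between 182 and 186 bp and a median depth of 10 fragments in every group.

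**Figure D2:**
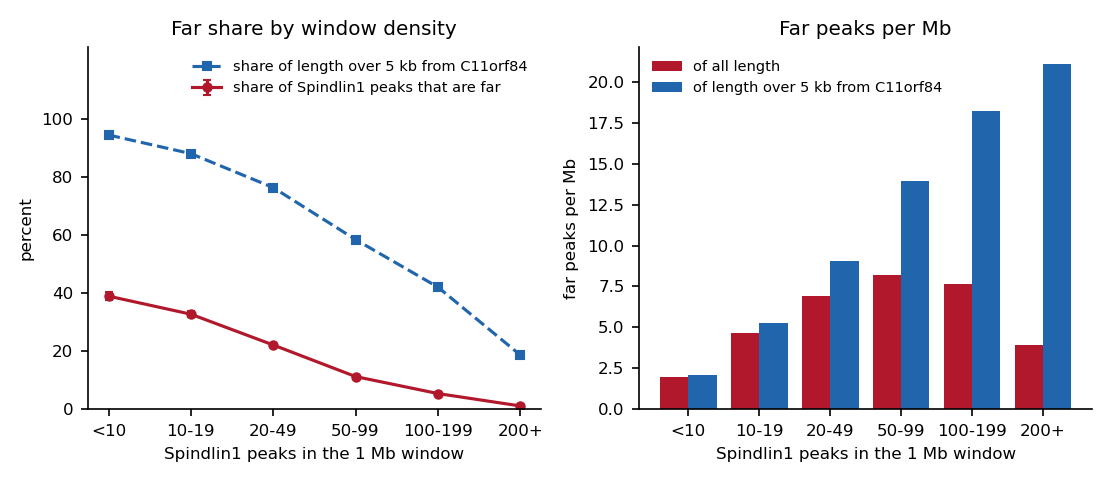
Left, percent of Spindlin1 peaks that are far (circles, bars are 95% counting intervals) and percent of length over 5 kb from any C11orf84 peak (squares), by the number of Spindlin1 peaks in the 1 Mb window (x axis). Right, far peaks per Mb in the same groups, where the value per Mb of all length (red) is highest at 8.18 in windows of 50 to 99 peaks and that per Mb of length over 5 kb from C11orf84 (blue) rises to 21.1 in windows of 200 or more.

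Across the 2701 windows the number of far peaks correlated with a Pearson r of 0.111 and a Spearman rho of 0.605 with the number of all Spindlin1 peaks, which contain them. With the number of C11orf84 peaks that were themselves over 5000 bases from any Spindlin1 peak, the correlations were 0.470 and 0.564. Windows share 2 libraries and their mappable length and are not replicates, so these are descriptions.

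The fullest windows were not those that lead the whole list. A window of chromosome 12 at 38 to 39 Mb and one of chromosome 14 at 64 to 65 Mb each had 25 far peaks, out of 108 and 80 Spindlin1 peaks. The first held 71 C11orf84 peaks, of which 4 were far from Spindlin1, and the second 89, of which 14 were far. The window of chromosome 17 from 58 to 59 Mb had 22 far of 109 Spindlin1 peaks, that of chromosome 8 from 136 to 137 Mb 22 of 84, and that of chromosome 14 from 50 to 51 Mb 20 of 63. The far peaks of the chromosome 17 window stood on a median background of 1.69 times the floor, the lowest background of the list. All Spindlin1 peaks of that window had a similar median, 1.71 times the floor. Among windows of at least 20 Spindlin1 peaks, the far share was highest on chromosome 7 at 88 to 89 Mb, with 14 of 21. It was 15 of 23 on chromosome 4 at 107 to 108 Mb, where 5 C11orf84 peaks were called, and 14 of 22 on chromosome 2 at 116 to 117 Mb. These windows were picked for their counts, so the counts are not tested.

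Chromosome arm ends, which are crowded with the other Spindlin1 peaks, held about as many far peaks as their length. The outermost 5 Mb of 39 arm ends took up 7.46% of the length and held 910 far peaks, 7.16% of them (6.72 to 7.62), where 28% of all Spindlin1 peaks and 29.9% of the other peaks lay there. The ends had 4.27% of the length over 5000 bases from C11orf84, with 10.96 far peaks per Mb of it, against 6.34 elsewhere. At the ends 2.13% (2.0 to 2.27) of Spindlin1 peaks were far, against 10.7% (10.6 to 10.9) elsewhere. The most far peaks at an end were 43 of 232 on the short arm of chromosome 18, followed by 37 of 241 on the long arm of chromosome 3 and 37 of 316 on the short arm of chromosome 6.

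The far share fell with summit depth. Among peaks whose background stood at the floor, so that 1 background applied to all, 16.5% (15.1 to 17.9) of those with 7 fragments were far. The share was 8.85% (8.38 to 9.35) at 10 fragments, 3.75% (3.28 to 4.25) at 13 and 1.38% (0.876 to 2.06) at 16. Of the 601 floor peaks with 20 or more fragments, 0 were far, which allows a share of up to 0.499% by the limit of 3 counts (0.612% by the exact interval). In windows of fewer than 20 Spindlin1 peaks, the share went from 60.8% (55.1 to 66.3) at 7 fragments to 44.4% (41.1 to 47.8) at 10 and 29.4% (23.5 to 35.9) at 13. In windows of 100 or more it went from 5.62% (4.59 to 6.81) through 2.59% (2.28 to 2.93) to 1.43% (1.11 to 1.8). The fall with depth was present in sparse and dense windows alike, and at equal depth sparse windows had the higher share. That order is in part built in by the length open to far peaks. Such length was 94.6% in windows of fewer than 10 peaks and 88.2% in those of 10 to 19. It was 42.1% in windows of 100 to 199 peaks and 18.7% in those of 200 or more.

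**Figure D3:**
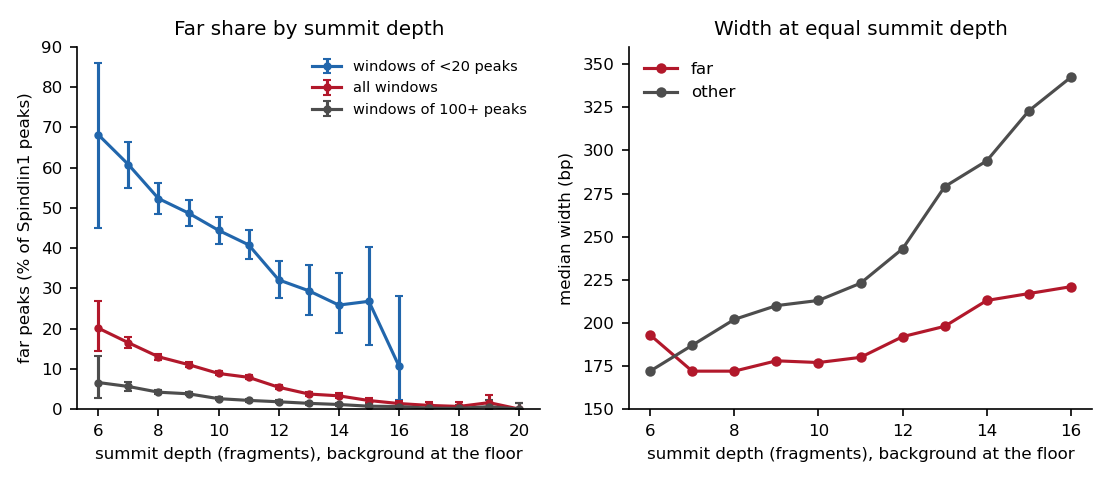
Left, percent of Spindlin1 peaks at the background floor that are far, by summit depth in fragments, for all windows and for windows of fewer than 20 or of 100 or more Spindlin1 peaks (bars are 95% counting intervals, sparse points with at least 20 peaks shown). Right, median width in bp of far and other peaks at equal summit depth, from a y axis start of 150 bp, which shows far peaks narrower at each depth but 6 fragments.

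Far peaks were also narrower than other peaks of the same depth and background. At the floor with 8 fragments the median widths were 172 bp for far and 202 bp for other peaks, with 10 fragments 177 and 213 bp, and with 14 fragments 213 and 294 bp. At 6 fragments, with 34 far peaks, the order was the opposite, 193 against 172 bp. The shortest width of the list, 172 bp, belonged to 4403 far peaks, 34.6% of them (33.8 to 35.5), against 15.2% of all Spindlin1 peaks and 13.4% of the other peaks. Only 33 far peaks (0.260%) reached 500 bp, a width that 11.6% of the other peaks had. The widest far peaks were on chromosome 4 (7600599 to 7601340, 742 bp, 12 fragments at the floor), chromosome 15 (29743373 to 29744043, 671 bp) and chromosome 14 (64276212 to 64276872, 661 bp). The first lay 5186 bases from a C11orf84 peak and 819 bases from the next Spindlin1 peak.

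Strongly raised background was less common under far peaks, although their median background was no lower. It was 1.07 times the floor, against 1.05 in the other peaks, and 38.0% of far against 30.4% of other peaks stood between the floor and 1.5 times it. A raised background, meaning 2 or more times the floor, was found at 624 far peaks, 4.91% of them (4.54 to 5.3), where 9.09% of all Spindlin1 peaks and 9.47% of the other peaks had it. In windows of fewer than 20 Spindlin1 peaks the gap was wider, at 3.57% (3.01 to 4.19) against 15.2% (14.4 to 16.0). The raised share was lower in far than in other peaks on 21 of 22 chromosomes, and the exception was chromosome 22, with 16 of 194 far peaks (8.25%, 4.79 to 13.0) against 6.30%. Chromosome 8 held 94 of the 624 raised far peaks (15.1%), against 6.14% of all far peaks. Its other peaks stood on raised background more often still, 24.2% of them against 12.1% of its far peaks. On chromosome 13, 0 of 192 far peaks stood on raised background (interval up to 1.9%).

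The stretch of genome that set the background also differed. The background of a peak was either the floor or a whole number of Input reads counted over 1 fragment length, 1 kb or 10 kb, where the unit was taken as an Input read by inference. The 10 kb stretch set it for 2665 far peaks, 21.0% of them (20.3 to 21.7), where 11.8% of all Spindlin1 peaks and 10.96% of the other peaks had it. A single fragment length set it for 2531 far peaks (19.9%, 19.2 to 20.6), against 26.5% of all and 27.1% of the other peaks. The floor applied to 5841 far peaks (45.9%, 45.1 to 46.8), slightly fewer than the 48.1% of all peaks. The share set over 10 kb was 11.1% in peaks overlapping C11orf84 and lower, 8.70%, at 1 to 1000 bases. Beyond that it was 13.5% at 1001 to 5000 bases, 18.7% at 5001 to 10000 bases, 22.9% at 20001 to 50000 bases and 20.4% beyond 100000 bases. In windows of fewer than 20 Spindlin1 peaks the difference was smaller, and the 10 kb stretch set the background of 21.2% of far and 19.3% of other peaks. In those windows the floor applied to 49.7% of far and 34.1% of other peaks.

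**Figure D4:**
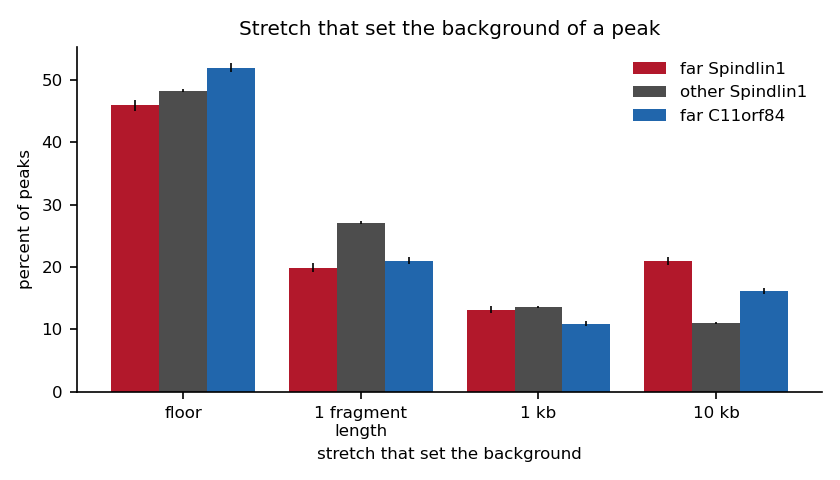
Percent of peaks (y axis) whose background was the floor or was set over 1 fragment length, 1 kb or 10 kb (x axis), for far Spindlin1, other Spindlin1 and far C11orf84 peaks (bars from 0, error bars are 95% counting intervals). The 10 kb stretch applies to 21.0% of far Spindlin1, 10.96% of other Spindlin1 and 16.1% of far C11orf84 peaks.

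Few far peaks had a Spindlin1 peak within 5 kb, but most had one within 50 kb. Another Spindlin1 peak lay within 5 kb of 2563 far peaks, 20.2% of them (19.5 to 20.9), where 82.5% of all Spindlin1 peaks and 88.2% of the other peaks had one. The median distance to the nearest Spindlin1 peak was 14240 bases for far and 508 bases for other peaks. This gap follows in part from the rule, since a peak near a Spindlin1 and C11orf84 cluster cannot be far. Within 50 kb another Spindlin1 peak was found for 10384 far peaks, 81.7% of them, where 97% of all Spindlin1 peaks had one, and 2329 far peaks (18.3%, 17.7 to 19.0) had none. Such solitary far peaks had a median width of 181 bp and a mean of 10.2 fragments, and 3.05% stood on raised background. The 1816 peaks that were as solitary in the Spindlin1 list but overlapped a C11orf84 peak were wider and deeper, at 244 bp and 13.0 fragments, and 16.0% stood on raised background.

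**Figure D5:**
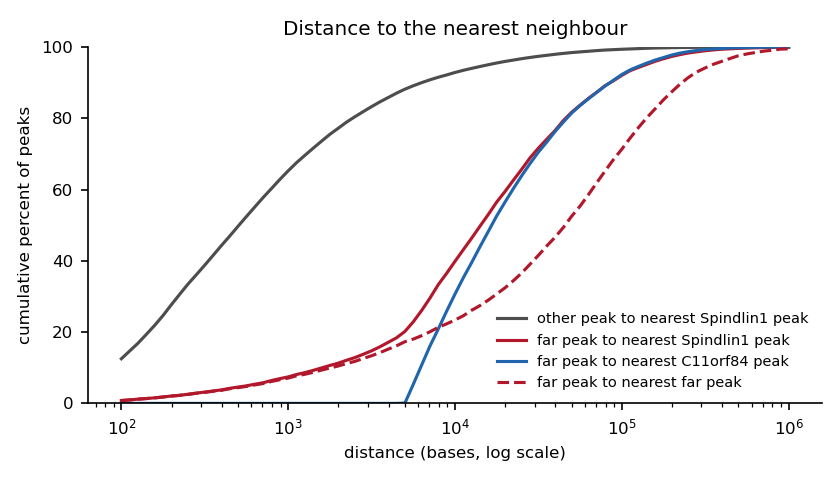
Cumulative percent of peaks (y axis) by distance in bases (x axis, log scale) to the nearest neighbour, for far peaks to the nearest Spindlin1, C11orf84 or far peak and for other peaks to the nearest Spindlin1 peak. Medians are 14240 bases from far to Spindlin1, 45473 bases from far to far and 508 bases for the other peaks.

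Among themselves far peaks were more widely spaced than the other Spindlin1 peaks. The nearest other far peak was at a median of 45473 bases, within 50 kb for 6673 of them (52.5%, 51.6 to 53.4), and within 1 kb for 902 (7.1%). At 50 kb, 97.5% of the other peaks had a neighbour of their own kind, and so had 67.6% of far C11orf84 peaks. Far peaks are fewer than either, so wider spacing follows in part from their number. Whether they group beyond what their number gives was not tested. Joined at gaps of at most 50 kb they formed 8609 runs. Of these, 6040 held a single far peak, 1661 held 2, 550 held 3, and 139 runs of 5 or more held 825 far peaks (6.49%). Far peaks with and without a far neighbour within 50 kb were alike, with median widths of 185 and 183 bp and means of 10.6 and 10.5 fragments.

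The longest run lay on chromosome 12 (38081748 to 38399210), with 22 far peaks in 317 kb. It held 44 Spindlin1 and 12 C11orf84 peaks in all. Its far peaks had 7 to 14 fragments and a median width of 251 bp (172 to 440), wider than far peaks in general, and 16 of them stood at the floor. The run began 146 kb from the longest peak-free stretch of its chromosome, which is 3.08 Mb long. Such a stretch in the middle of a chromosome is usually the unassembled centromere.

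Other long runs also lay beside such stretches. On chromosome 7 (61867975 to 61915376) there were 12 far peaks in 47.4 kb, with 8 to 16 fragments, among 14 Spindlin1 peaks and 1 C11orf84 peak, 813 kb from the stretch. Chromosome 5 (45930048 to 46135214) had 10 far peaks of 6 to 10 fragments, 6 of them at the shortest width, 269.9 kb from it. Chromosome 3 (90416189 to 90454425) had 8 far peaks of 6 to 10 fragments, 49.1 kb from it. Counting chromosome 12, 4 of the 17 runs of 8 or more, with 52 of their 164 far peaks, came within 1 Mb of the longest peak-free stretch, and a run of 10 on chromosome 11 (50390190 to 50550009) lay 1043 kb from it. Yet far peaks as a whole were not much more common there. Within 1 Mb of the longest such stretch of 19 chromosomes, 216 of 2386 Spindlin1 peaks were far (9.05%, 7.93 to 10.3), an interval that includes the 8.33% of all peaks.

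Away from centromeres the tightest long run was on chromosome 17 (58705351 to 58717608), where 8 far peaks fell in 12.3 kb with no other peak of either list between them. Along the run their summits had 22, 13, 10, 13, 15, 14, 11 and 10 fragments, and the nearest C11orf84 peak was 7648 to 16420 bases away. The median background was 1.58 times the floor and 2 of the 8 stood on raised background. Chromosome 14 had runs of 11 (50613792 to 50770017) and 9 (64485096 to 64645743), and chromosome 6 (39745579 to 39902276) and chromosome 1 (10104634 to 10280442) had 9 each. A looser series on chromosome 3 (75733256 to 76381185) had 11 far peaks in a row over 648 kb with no other peak of either protein between them, the longest such row.

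The far peaks of highest fold stood high in the whole list without leading it. The highest, on chromosome 2 (100012974 to 100013204), had a fold of 10.97 at 21 fragments and ranked 758 of all Spindlin1 peaks. Chromosome 3 (95894442 to 95894687) followed with 10.9 at 22 fragments and chromosome 15 with 10.6 at 21 (64269384 to 64269611) and 10.4 at 26 (60330391 to 60330666). Next came chromosome 19 (52511267 to 52511547), with 10.4 at 22 fragments. Then came 6 far peaks tied at 19 fragments over the floor and a fold of 10.3, rank 1408, and no far peak at the floor was deeper. The 5 that complete the top 10 lay on chromosomes 1 (237205120 to 237205577), 11 (48172196 to 48172443), 13 (113160499 to 113160709), 16 (48143588 to 48143826) and 2 (98025095 to 98025296). Several were close to the limit or to other peaks. The chromosome 13 peak was 5038 bases from C11orf84 and 220 bases from another Spindlin1 peak, in a window of 396 Spindlin1 peaks. The chromosome 2 peak at 98 Mb was more isolated, 10358 bases from C11orf84 and 237183 bases from any Spindlin1 peak.

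The deepest far peaks mostly stood on raised background. Of the 98 far peaks with 20 or more fragments, 67 stood on raised background (68.4%, 58.2 to 77.4), against 51.9% of the other peaks of that depth. Chromosome 8 held 19 of the 98 (19.4%), against 24.6% of the other peaks of that depth. The 3 deepest were neighbours on chromosome 8, with 34 fragments (30275741 to 30275952), 31 (30115091 to 30115287) and 30 (30137682 to 30137863), over backgrounds of 7.99, 6.48 and 6.28 times the floor, so that their folds were 4.08, 4.48 and 4.46. Extra DNA copies and antibody signal cannot be told apart there from these values.

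The 5 farthest peaks had 8 to 11 fragments, around the far median of 10. The most distant lay 935122 bases from any C11orf84 peak on chromosome 12 (73629348 to 73629535), with 8 fragments at the floor, in a window with 2 Spindlin1 peaks. Chromosome 13 (72420602 to 72420797) was 880383 bases away with 9 fragments, and chromosome 1 (198918537 to 198918708) 791824 bases away with 8. Chromosome 22 (16097829 to 16098009) and chromosome 6 (98564499 to 98564670) followed, both with 11 fragments.

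The reciprocal set, C11orf84 peaks over 5000 bases from any Spindlin1 peak, was larger and a little deeper. It held 19098 of 176515 C11orf84 peaks. The share was larger than the far share of Spindlin1 on all 22 chromosomes, for example 19.5% against 11.2% on chromosome 13 and 9.11% against 5.27% on chromosome 19. An Input read was worth 0.566 fragments in the C11orf84 list and 0.541 in the Spindlin1 list, by inference. If both lists used the same Input, which is not stated, the C11orf84 library was 1.04 times as deep. Total reads are unknown and the C11orf84 list is longer, so the shares are not measured alike. Far C11orf84 peaks had a median width of 197 bp, a median depth of 11 fragments and a raised background in 5.53%. They stood nearer to each other, at a median of 22891 bases against 45473 for far Spindlin1 peaks, which follows in part from their larger number. Of the far C11orf84 peaks, 10.9% lay in the outermost 5 Mb of arms, against 7.16% of far Spindlin1 peaks. At 10 fragments on the floor they were also more frequent, at 13.7% of C11orf84 peaks against 8.85% (8.38 to 9.35) of Spindlin1 peaks. The shares were closer at 19 fragments, 2.09% against 1.60% (0.591 to 3.46), and at 6 fragments, 20.8% against 20.1% (14.4 to 27.0). The floor was 1.04 fragments for C11orf84 and 0.949 for Spindlin1, so equal depth is not equal fold.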

How the data were processed

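Reads were aligned with Bowtie 1.2.2 to hg19, per the submitters' processing notes. The sources used here name no peak caller, threshold or control. Each deposited list holds, per peak, the authors' fold (a ratio of summit to local background), −log10 p, −log10 q and a score. The deposited score only repeats −log10 q, multiplied by 10 and cut to a whole number in 100% of peaks, and was not used. These values are the authors' own and describe peaks within their list.

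Summit depth k and background λ were solved from fold = (k + 1)/(λ + 1) and from −log10 p as the upper Poisson tail above k. A whole k met both values in 100% of 153468 Spindlin1 peaks (largest error 0.000174 in −log10 p). The floor was 0.949 fragments, an Input read was worth 0.541 fragments, and total reads are unknown. On simulated data, with fold and −log10 p made by the same formulas, depth was exact in 100% of 19550 peaks. Distance and far status were exact in 100% of 2000 and 5000 simulated intervals. These runs check the code only, and not whether the unnamed peak caller used these formulas. Distance is the difference of the nearest base positions. Windows are 1 Mb from position 1, by summit. Acrocentric short arms have no arm end. Far peaks to name were the leading ones by fold, width, depth, distance, window and run. The far peaks, groups and rules were chosen with earlier results of these data known. Scripts ran under Python 3.11.15 with pandas 2.3.3 and NumPy 2.4.6, intervals came from SciPy 1.17.1, and plots from matplotlib 3.10.9. Alternatives were other distance limits, summits in place of edges, stricter q, background, chromosome X, run gap and window grid. Chosen after the data were seen were windows of fewer than 20 peaks, leaving out chromosome 8, and densities of far peaks per length over 5000 bases from C11orf84.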

Additional observations from a re-analysis of the deposited data

Results flagged for a closer look

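Chromosomes X and Y entered no comparison above, and both held Spindlin1 peaks far from C11orf84 peaks. Chromosome X had 113 of 761 (14.8%, 95% interval 12.4 to 17.6), with a median of 9 fragments, a median width of 190 bp and 1 on raised background. Chromosome Y had 6 of 90 (6.67%, 2.49 to 13.9), with a median of 13.5 fragments, a median width of 276 bp and 2 on raised background. The median background of these 6 was 1.71 times the floor. Whether the reads placed on chromosome Y came from that chromosome was not tested, so these calls are not shown to be Spindlin1 sites. Both chromosomes are listed because they were left out of the comparisons above, and binding there was not tested.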

How the results depend on the processing

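In all 47 alternative values that could be set beside the other Spindlin1 peaks, far peaks stayed on the same side. They were narrower, shallower, less often on raised background, less often near a peak of their own kind, and less common in the densest windows. As reported, 12713 far peaks are set against 139904 other peaks at a fixed gap, so fewer neighbours follow in part from their smaller number. The densest windows had only 1.12% of the length over 5000 bases from C11orf84, so the smaller share there is in part built in. Across the alternatives the sizes moved, and the cause was not tested. With a limit of 2000 or 10000 bases the far share was 12.3% or 5.78%, raised background 5.3% or 4.48%, a far neighbour within 50 kb 65.5% or 43.1%, and the densest windows held 7.75% or 1.89%. With summits over 5000 bases apart the far share was 8.54%. Among Spindlin1 peaks of −log10 q at least 10 it was 1.66%, with a median width of 216 bp (356 bp in other peaks), 16 fragments (18), 6.69% on raised background, 4.01% with a far neighbour and 8.36% in the densest windows. Against C11orf84 peaks of −log10 q at least 5 these were 11.7%, 188 bp, 6.23%, 64.5% and 4.79%, with the depth at 10 fragments. With raised background left out the far share was 8.71% and 50.7% had a far neighbour. Raised from 1.5 times the floor gave 16.0% (21.3% in other peaks). Run gaps of 10 and 200 kb gave 23.4% and 87.5%. In windows of fewer than 20 Spindlin1 peaks the far share was 35.0%, the width 182 bp, raised background 3.57% and a far neighbour 35.7%. Without chromosome 8 raised background was 4.44%. The densest windows could not be counted among windows of fewer than 20 peaks. Of 56 alternative values, 26 stayed within the counting interval of the reported one, among them all 6 with chromosome X added. No paired analysis was possible because each antibody had 1 library. Total reads are unknown, and at 10 fragments per summit a region just under the threshold of the C11orf84 list cannot be told from an empty one.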
